A study of Gasterosteus aculeatus with 227 samples.

Results

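The livers compared here are those of female threespine stickleback (Gasterosteus aculeatus) at either end of the range of vtg3, a vitellogenin gene. Of 38 female liver libraries, 35 held at least 1000000 counts, and 33 of these were ranked by vtg3 in counts per 1000000 (CPM) after the livers of female replicates 17 and 23 had been left out by name. The 11 highest form the high-vtg3 group, the 11 lowest the low-vtg3 group, and 11 livers lie between them. These 22 livers belong to a series of 227 brain, gill and liver libraries of 80 fish, caught untreated in 1 natural population during the reproductive period and labelled by tissue and sex only. Age, egg stage and body condition were not among the labels, so both groups are wild females that differ in nothing the labels name. The measured quantity was the number of reads per gene from a 3' end library, in which each transcript gives about one read whatever its length.

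Vitellogenins are the egg yolk precursor proteins. In egg-laying fish the liver makes them under oestrogen, acting through the oestrogen receptor, and releases them into the blood, from which the growing oocytes take them up. In the same season the fish liver also makes egg coat proteins, besides its standing output of apolipoproteins, clotting factors and complement.

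Because vtg3 chose the groups, its values are a description and carry no test. In the high-vtg3 livers vtg3 ran from 10527 CPM to 15324 CPM with a median of 12563 CPM, and in the low-vtg3 livers from 167 CPM to 8444 CPM with a median of 6460 CPM. The lowest liver, female replicate 21 with 167 CPM, stood apart from the next lowest, replicate 27 with 4526 CPM. The edges of the groups were narrow. The last liver inside the high-vtg3 group (replicate 19) had 10527 CPM and the first one outside it (replicate 31) 10431 CPM, while the last liver outside the low-vtg3 group (replicate 11) had 8532 CPM and the first one inside it (replicate 10) 8444 CPM. Most of the ranked females thus had vtg3 among their abundant transcripts, and the comparison is mainly one of more against less vtg3, with 1 liver in which it was nearly absent.

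The labels and vtg3 did not match in every library. The 2 female livers left out had 40.4 CPM (replicate 17) and 15.2 CPM (replicate 23), near the median of 17.6 CPM in 32 livers labelled male. Among those male livers, 2 had vtg3 above 1000 CPM, at 5395 CPM and 11575 CPM, and the next highest had 333 CPM. In the text below male livers enter only through their medians, and the plot of named genes shows each of them.

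**Figure D1:**
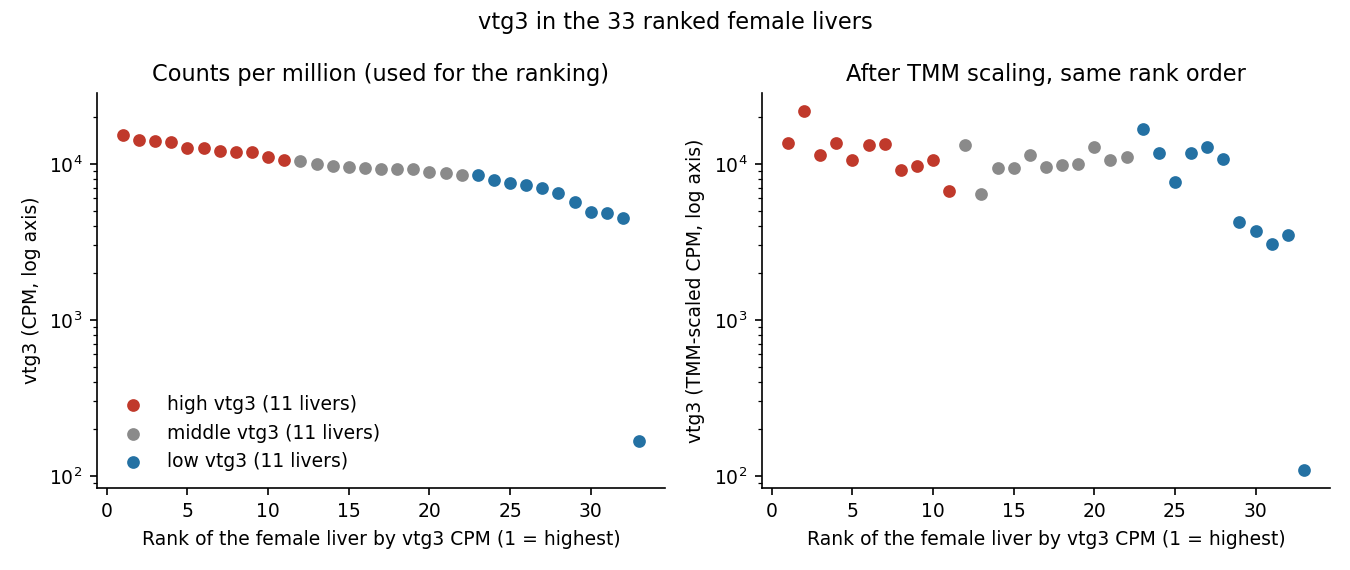
vtg3 in each of the 33 ranked female livers against its rank, in CPM on the left and in TMM-scaled CPM on the right, both on log axes; each point is 1 library. On the left the groups are separate by construction, and on the right several low-vtg3 livers (blue) lie as high as the high-vtg3 livers (red), while replicate 21 stays lowest at 109 scaled CPM.

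CPM is a share of the reads counted in genes, so it also moves when other abundant transcripts take more or fewer of them. After scaling by the trimmed mean of M-values (TMM), which sets libraries on a common level by the bulk of their genes, vtg3 ran from 6747 to 21676 scaled CPM in the high-vtg3 livers (median 11313) and from 109 to 16702 scaled CPM in the low-vtg3 livers (median 7695). The groups overlapped on that scale. Ranked again by scaled vtg3, only 5 of the 11 high-vtg3 livers and 6 of the 11 low-vtg3 livers kept their place, 4 low-vtg3 livers moved to the 11 highest and 2 high-vtg3 livers to the 11 lowest.

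The low-vtg3 livers were unlike one another in makeup. Besides vtg3, 4 genes without a name in the gene table led the ranked livers, LOC120810467 on chromosome 20, LOC120808851 on the X, and LOC100190880 and LOC120823934 on chromosome 8. LOC120810467 took 4.41% to 24.7% of counts in the high-vtg3 livers (median 13.2%) and 0.455% to 26% in the low-vtg3 livers (median 10.5%), against a median of 0.029% in male livers. The medians of all 4 in male livers were 0.0158% to 0.029%. Together they took 31.7% to 50.6% of counts in the high-vtg3 livers (median 42.6%) and 1.61% to 56.9% in the low-vtg3 livers (median 29.2%). In the low-vtg3 group replicates 10, 28, 29, 15 and 1 had 56.9%, 55%, 48.2%, 47.4% and 47.3%. Replicates 34, 35, 27, 24, 26 and 21 had 29.2%, 20.6%, 20.3%, 18.7%, 17.0% and 1.61%, all below the lowest high-vtg3 liver. None of the 4 passed the test between the groups, with adjusted p-values from 0.80 to 0.94.

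The low end of the ranking therefore held livers in which these 4 transcripts took a larger share than in most high-vtg3 livers and livers in which they took a smaller one. In a bulk sample, fewer cells of a type and less RNA per cell cannot be told apart. The TMM factors divided the low-vtg3 livers in the same way and were 0.506 to 0.669 in replicates 10, 15, 1, 28 and 29, 0.988 in replicate 34 and 1.29 to 1.60 in replicates 27, 35, 24, 21 and 26, against 0.66 to 1.57 in the high-vtg3 livers.

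**Figure D2:**
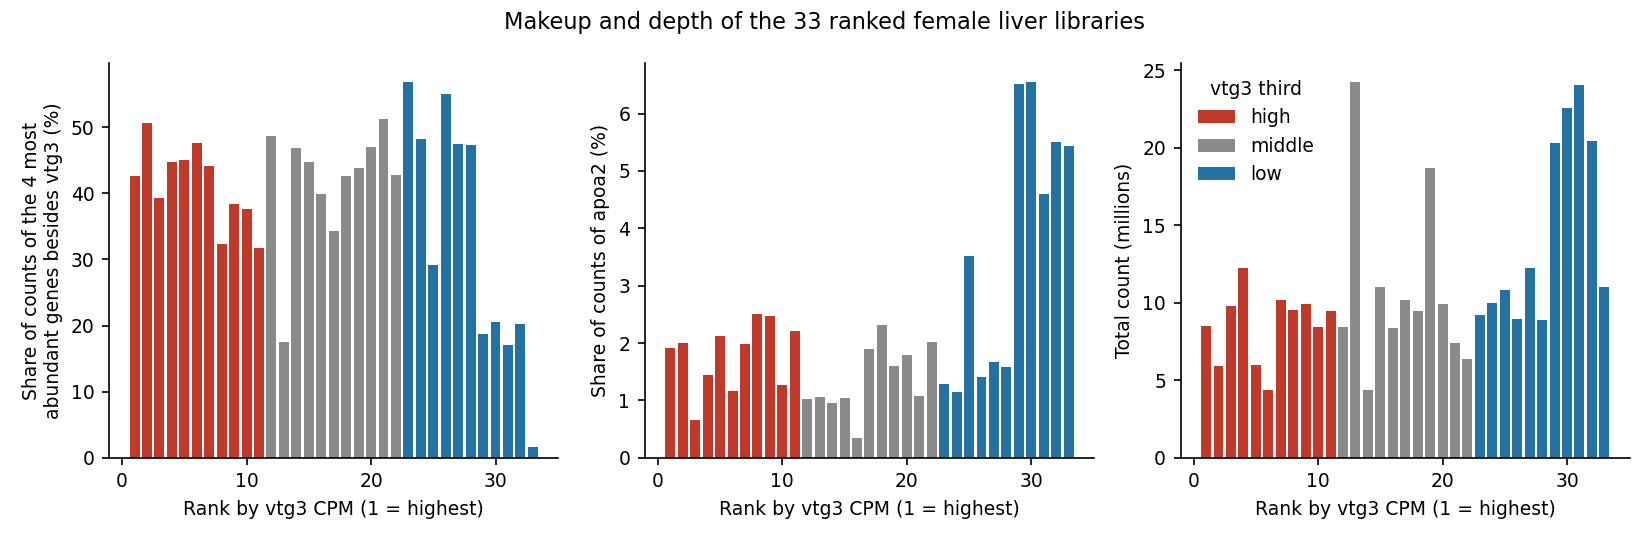
Share of counts of the 4 most abundant genes besides vtg3, share of apoa2 and total count for each of the 33 ranked livers, from rank 1 (highest vtg3 CPM) to 33; each bar is 1 library. The livers of ranks 29 to 33 have low shares of the 4 genes and apoa2 shares from 4.61% to 6.55%, and those of ranks 29 to 32 exceed 20000000 counts.

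Depth moved with the groups. Total counts averaged 8583751 ± 2278555 in the high-vtg3 livers and 14417853 ± 6055566 in the low-vtg3 livers (SD, n = 11 each), a difference of -5834101 (two-sided permutation test, p = 0.0052, adjusted over 3 measures p = 0.0156). Replicates 24, 26, 27 and 35 of the low-vtg3 group exceeded 20000000 counts, and no high-vtg3 liver exceeded 12220704. The share of reads in no gene was 7.28% ± 0.677 in the high-vtg3 livers and 6.84% ± 0.984 in the low-vtg3 livers (p = 0.231, adjusted p = 0.346). The 10 most abundant genes of each library, vtg3 left out, took 49.1% ± 5.65 in the high-vtg3 livers and 46.7% ± 11.7 in the low-vtg3 livers (p = 0.554, adjusted p = 0.554), and the spread was wider in the low-vtg3 group. The part of depth in the gene results below was not tested apart from the alternatives named with them.

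Markers of liver cells and of their neighbours were summed per library. The 10 hepatocyte markers found of 18 listed summed to 18774 to 54227 CPM in the high-vtg3 livers (median 30755) and 20121 to 113796 CPM in the low-vtg3 livers (median 77379), and 1 of them, hpxb, passed the test. A large part of this sum was apoa2, with medians of 1.98% of counts in the high-vtg3 livers and 3.52% in the low-vtg3 livers. It did not pass (adjusted p = 0.0539, by edgeR). The sums are CPM without TMM scaling, so they also move with the share of other abundant transcripts. Exocrine pancreas, which lies within or beside the liver in many fish, was present in both groups. Its 9 markers found of 18 summed to 4.68 to 2134 CPM in the high-vtg3 livers and 5.28 to 2119 CPM in the low-vtg3 livers, and ela3l was at 0 in all 22. The 11 ovary and oocyte markers found of 12 stayed at 0.505 to 10.4 CPM in the high-vtg3 livers and 1.01 to 13.2 CPM in the low-vtg3 livers, and none had enough counts to be tested. The 9 macrophage and leukocyte markers summed to 11.1 to 158 CPM in the high-vtg3 livers and 23.6 to 424 CPM in the low-vtg3 livers, with the highest sum in replicate 21. The 10 endothelial and stellate markers found of 12 summed to 31.1 to 102 CPM in the high-vtg3 livers and 23.9 to 196 CPM in the low-vtg3 livers, again highest in replicate 21. The 4 biliary markers found of 7 summed to 124 to 389 CPM in the high-vtg3 livers and 76.5 to 559 CPM in the low-vtg3 livers. Sums of 6 of 11 erythrocyte markers ran from 10.6 to 30.7 CPM in the high-vtg3 livers and from 6.07 to 33.5 CPM in the low-vtg3 livers. Sums of 3 of 6 intestine markers reached 4.51 CPM in the high-vtg3 livers and 7.36 CPM in the low-vtg3 livers, and those of 3 of 6 muscle markers 14.3 CPM and 9.20 CPM in the same groups. Apart from ela3l, no marker found was at 0 in all 22 livers. No marker outside the hepatocyte list passed the test, and the part of these cells in the gene results was not tested.

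Few genes passed the test between the groups. Of 11953 genes tested in the liver, 152 (1.27%) differed at an adjusted p under 0.05, 36 (0.301%) higher and 116 (0.97%) lower in the high-vtg3 livers. Among the named genes lower in the high-vtg3 livers were those of an apolipoprotein E, a hemopexin, a complement component and a lysozyme, and among the named genes higher in them were those of membrane transporters and DNA-binding proteins. The test was edgeR's quasi-likelihood test with Benjamini-Hochberg adjustment over all genes. In the fit and the adjustment vtg3 was kept, and it was left out of the counts of genes. At an unadjusted p under 0.05 there were 1844 genes (15.4%), and the median log2 fold change over all genes was -0.01. The genes are read as going with the vtg3 rank in the same libraries, since that rank set the groups.

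These calls changed with single livers left out, with the depth alternatives and with how the ranking was made. Leaving out 1 liver at a time gave 89 to 248 calls, with 89 without replicate 13, 90 without replicate 6, 94 without replicate 19, 99 without replicate 27 and 248 without replicate 32. Without replicate 21, the liver nearly lacking vtg3, 117 of the 152 still passed. With the log2 total count as a covariate 1351 genes passed, 572 higher (4.79%) and 779 lower (6.52%), 114 of the 152 among them, and without the 4 low-vtg3 livers above 20000000 counts, an alternative added after the data were seen, 485 passed, 109 of the 152 among them. All 152 kept their direction in these fits. When livers were ranked by TMM-scaled vtg3, also added after the data were seen, 4230 of 11837 genes passed (35.7%), 2091 higher (17.7%) and 2139 lower (18.1%), yet only 26 of the 152 still did and 95 kept their direction. The groups of that ranking also differed in TMM factor, as given above, and the part of library makeup in its calls was not tested. When libraries were scaled by their totals without TMM, 13 genes passed, 7 of them (53.8%) higher in the high-vtg3 livers against 23.7% in the TMM-scaled fit, and the median over all genes shifted by 0.14 on the log2 scale.

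**Figure D3:**
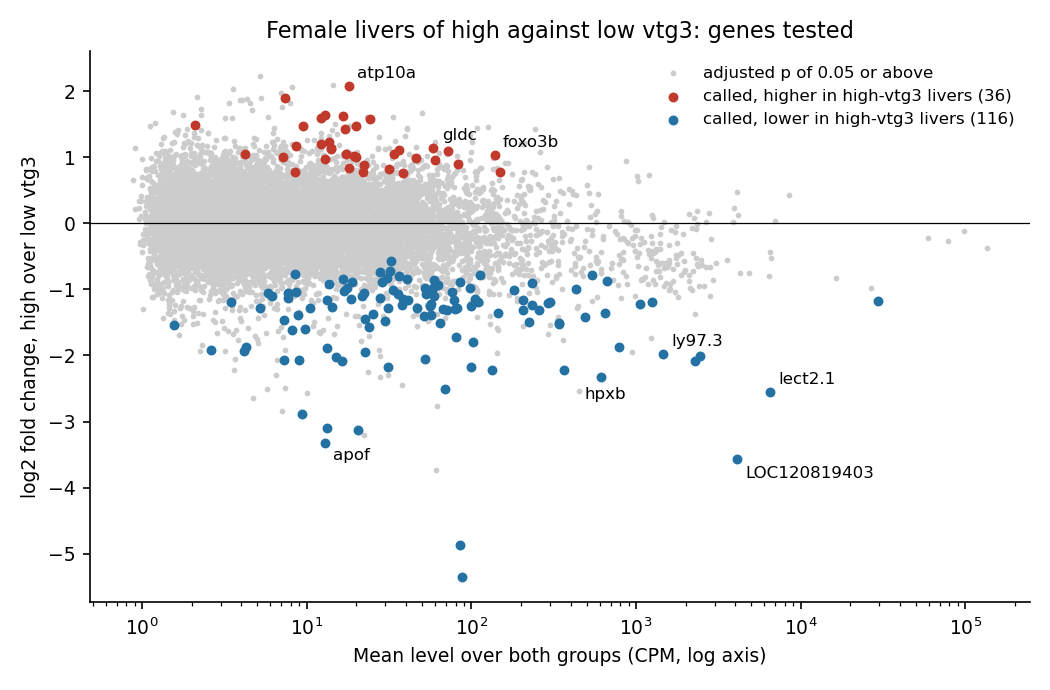
log2 fold change (high over low vtg3) of each gene tested against its mean level in CPM on a log axis; coloured points passed at an adjusted p under 0.05. The 36 genes higher in the high-vtg3 livers are at most as abundant as eif4g1a, just above foxo3b, whereas the 116 lower ones reach into the most abundant genes, such as lect2.1 and LOC120819403.

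Values of single genes are given in TMM-scaled CPM as lowest, median and highest liver. The 3 largest changes among the 36 genes higher in the high-vtg3 livers were those of atp10a, slc6a2 and slc12a4. The phospholipid transporter gene atp10a had 5.37, 19.5 and 56.5 in the high-vtg3 livers, against 1.57, 4.18 and 17.0 in the low-vtg3 livers (log2 fold change 2.08 ± 0.44 SE, adjusted p = 0.0163). The highest low-vtg3 livers lay within the range of the high-vtg3 group, and the male median was lower still at 0.24. The noradrenaline transporter gene slc6a2 had 4.61, 10.8 and 18.0 in the high-vtg3 livers, against 1.08, 3.46 and 5.37 in the low-vtg3 livers (log2 fold change 1.89 ± 0.29, adjusted p = 0.00293). The ranges overlapped only at their ends, and the male median was 0.651. The potassium-chloride cotransporter gene slc12a4 had a median of 14.3 in the high-vtg3 livers, against 5.06 in the low-vtg3 livers (log2 fold change 1.64 ± 0.33), and the histamine receptor gene hrh2a one of 10.7, against 3.38 (1.48 ± 0.34).

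Several of the other named genes encode DNA-binding or chromatin proteins. LOC120827755 (nfixb), a nuclear factor I gene, had 8.36, 23.2 and 32.8 in the high-vtg3 livers, against 4.15, 5.90 and 18.7 in the low-vtg3 livers (log2 fold change 1.62 ± 0.28, adjusted p = 0.0039). A single low-vtg3 liver lay well above the rest of its group. The HMG-box gene tox3 had 10.6, 14.4 and 23.7 in the high-vtg3 livers, against 2.07, 7.40 and 12.8 in the low-vtg3 livers (log2 fold change 1.2 ± 0.25, adjusted p = 0.0162). The ARID gene arid3c (log2 fold change 1.43 ± 0.29), the chromatin-remodelling subunit gene dpf3 (1.17 ± 0.28) and the forkhead gene foxo3b (1.04 ± 0.22) rose too. foxo3b was one of the most abundant of the 36, with a median of 176 in the high-vtg3 livers, against 82.0 in the low-vtg3 livers. Another forkhead gene, foxn2a, was the only one of the 36 whose groups did not overlap, with 28.4 to 54.6 in the high-vtg3 livers, against 10.8 to 28.3 in the low-vtg3 livers; it is named for that after its values were seen.

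The remaining named genes that rose had other roles. gldc, the glycine decarboxylase of the glycine cleavage system, had 31.3, 62.8 and 131 in the high-vtg3 livers, against 13.4, 29.2 and 52.4 in the low-vtg3 livers (log2 fold change 1.14 ± 0.27, adjusted p = 0.0329). pus10, a pseudouridine synthase gene, had a log2 fold change of 1.59 ± 0.35, zgc:154058 one of 1.59 ± 0.40 and si:dkey-157l19.2 one of 1.48 ± 0.24. The other abundant genes called were eif4g1a, the scaffold of the cap-binding complex of translation (0.77 ± 0.20), fndc3a (0.90 ± 0.22), LOC120809114 (1.1 ± 0.24) and LOC120809520 (ldlrad3; 0.96 ± 0.22). Of these, fndc3a kept its call in 9 of the 22 fits that each left out 1 liver, and LOC120809520 lost it without replicate 13. Without the 4 low-vtg3 livers above 20000000 counts eif4g1a (0.76) and fndc3a (0.86) did not pass.

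Among the named genes lower in the high-vtg3 livers, 3 encode plasma carriers of lipid or haem. apoea, an apolipoprotein E of lipid particles, had 45.4, 133 and 167 in the high-vtg3 livers, against 98.2, 527 and 1432 in the low-vtg3 livers (log2 fold change -2.22 ± 0.41, adjusted p = 0.0072). Replicates 34, 15 and 21 of the low-vtg3 group, with 98.2, 138 and 140, lay within the range of the high-vtg3 group, replicates 28 and 1 lay just above it, and the other 6 had 527 to 1432. hpxb, a hemopexin that binds free haem in plasma, had 67.7, 180 and 316 in the high-vtg3 livers, against 309, 612 and 2177 in the low-vtg3 livers (log2 fold change -2.32 ± 0.37, adjusted p = 0.00293). These ranges touched only at their ends. The apolipoprotein F gene apof had 0, 0.903 and 5.36 in the high-vtg3 livers, against 0.562, 12.0 and 62.3 in the low-vtg3 livers (log2 fold change -3.33 ± 0.75, adjusted p = 0.0238). Its levels were low in both groups, and the male median was 55.8. Its call did not hold with the depth covariate (-1.63, adjusted p = 0.202, by edgeR) or without the 4 low-vtg3 livers above 20000000 counts (-2.12, adjusted p = 0.0977).

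Other secreted proteins were among the named genes too. lect2.1, for a chemotactic protein that the liver secretes, had 605, 1047 and 3181 in the high-vtg3 livers, against 1154, 7367 and 29234 in the low-vtg3 livers (log2 fold change -2.55 ± 0.56, adjusted p = 0.0188). Replicates 10, 15, 28, 1 and 29 of the low-vtg3 group, with 1154 to 1669, lay within the range of the high-vtg3 group, and the other 6 had 7367 to 29234. Its call did not hold with the depth covariate (-1.94, adjusted p = 0.0575, by edgeR). LOC120832368 (lyz), a lysozyme gene, had a median of 793 in the high-vtg3 livers, against 2135 in the low-vtg3 livers (log2 fold change -2.0 ± 0.42), and LOC120832889 (qpct), a glutaminyl cyclase gene, one of 15.5, against 72.6 (-2.06 ± 0.48). ly97.3 had 312, 474 and 813 in the high-vtg3 livers, against 853, 1592 and 3725 in the low-vtg3 livers (log2 fold change -1.98 ± 0.27, adjusted p = 0.000741). Its groups did not overlap, and its adjusted p was the smallest of all genes.

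Enzymes and other proteins completed the named genes that fell. LOC120811246 (hdc), the histidine decarboxylase that makes histamine, had 4.92, 14.3 and 44.4 in the high-vtg3 livers, against 12.0, 31.7 and 357 in the low-vtg3 livers (log2 fold change -2.50 ± 0.58, adjusted p = 0.0276). The hdc difference was -0.087 (adjusted p = 0.929, by edgeR) with the depth covariate. Without the 4 low-vtg3 livers above 20000000 counts it was -0.45 (adjusted p = 0.427). These 4 livers also held ranks 29 to 32 by vtg3 CPM, and the part of depth apart from vtg3 was not tested. soul5, of the haem-binding SOUL family, fell by 2.89 ± 0.49 on the log2 scale, although replicate 21, the liver of lowest vtg3, had only 0.474 scaled CPM, the lowest value of its group. The annexin gene anxa6 had a log2 fold change of -2.18 ± 0.52, the cytochrome c oxidase subunit gene LOC120828690 (cox4i2) one of -2.07 ± 0.53 and tuft1b one of -3.10 ± 0.66. cox4i2 was at -0.47 (adjusted p = 0.59, by edgeR) with the covariate and -0.45 (adjusted p = 0.51) without these 4 livers. Of the most abundant genes that fell, 3 carry no name. LOC120827791 had medians of 16568 in the high-vtg3 livers and 37637 in the low-vtg3 livers (log2 fold change -1.18 ± 0.23), LOC120819403 medians of 600 and 7487 in the same groups (-3.57 ± 0.67), and LOC120830872 medians of 627 and 3641 (-2.08 ± 0.40). With the depth covariate LOC120819403 was at -2.36 and LOC120830872, which did not pass, at -1.35. A pair of unnamed genes lay furthest below 0, LOC120810713 (-5.36 ± 1.16) and LOC120809999 (-4.87 ± 1.09), and are given after their values were seen. Their highest livers, replicate 21 in both, had 795 and 632 scaled CPM, while the medians of the low-vtg3 livers were 5.98 and 6.92.

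Groups without overlap were rare, at 6 of the 11953 genes (0.0502%). Besides foxn2a and ly97.3 they included ido1, the tryptophan-degrading dioxygenase (0.952 to 6.64 in the high-vtg3 livers, against 6.87 to 22.3 in the low-vtg3 livers), ezra, for the membrane-cytoskeleton linker ezrin (18.5 to 51.7, against 54.8 to 123), and LOC120816533 (249 to 812, against 875 to 2213). They were named for this after their values were seen.

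Of the 24 genes named for the size of their change, 15 kept their call in all 22 fits that each left out 1 liver. hrh2a lost it without replicate 13, apof without replicate 6 or 27 and LOC120832889 without replicate 19 or 27. zgc:154058 kept its call in 6 of the 22 fits, LOC120828690 in 9, gldc and anxa6 in 14 each, and dpf3 and LOC120811246 in 17 each. Under the ranking by scaled vtg3, 9 of the 12 that fell still passed in the same direction and 0 of the 12 that rose did. The genes that fell and lost the call were soul5, apoea and ly97.3. With the depth covariate all 12 that rose still passed, arid3c at 2.16, and 5 of the 12 that fell did. apof, tuft1b (-2.32), lect2.1, hdc, cox4i2, qpct (-1.28) and lyz (-1.23) lost the call. Without the 4 low-vtg3 livers above 20000000 counts 11 of the 12 that rose and 7 of the 12 that fell still passed, and zgc:154058 (1.59), apof, tuft1b (-2.65), hdc, cox4i2 and qpct (-1.45) lost the call.

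**Figure D4:**
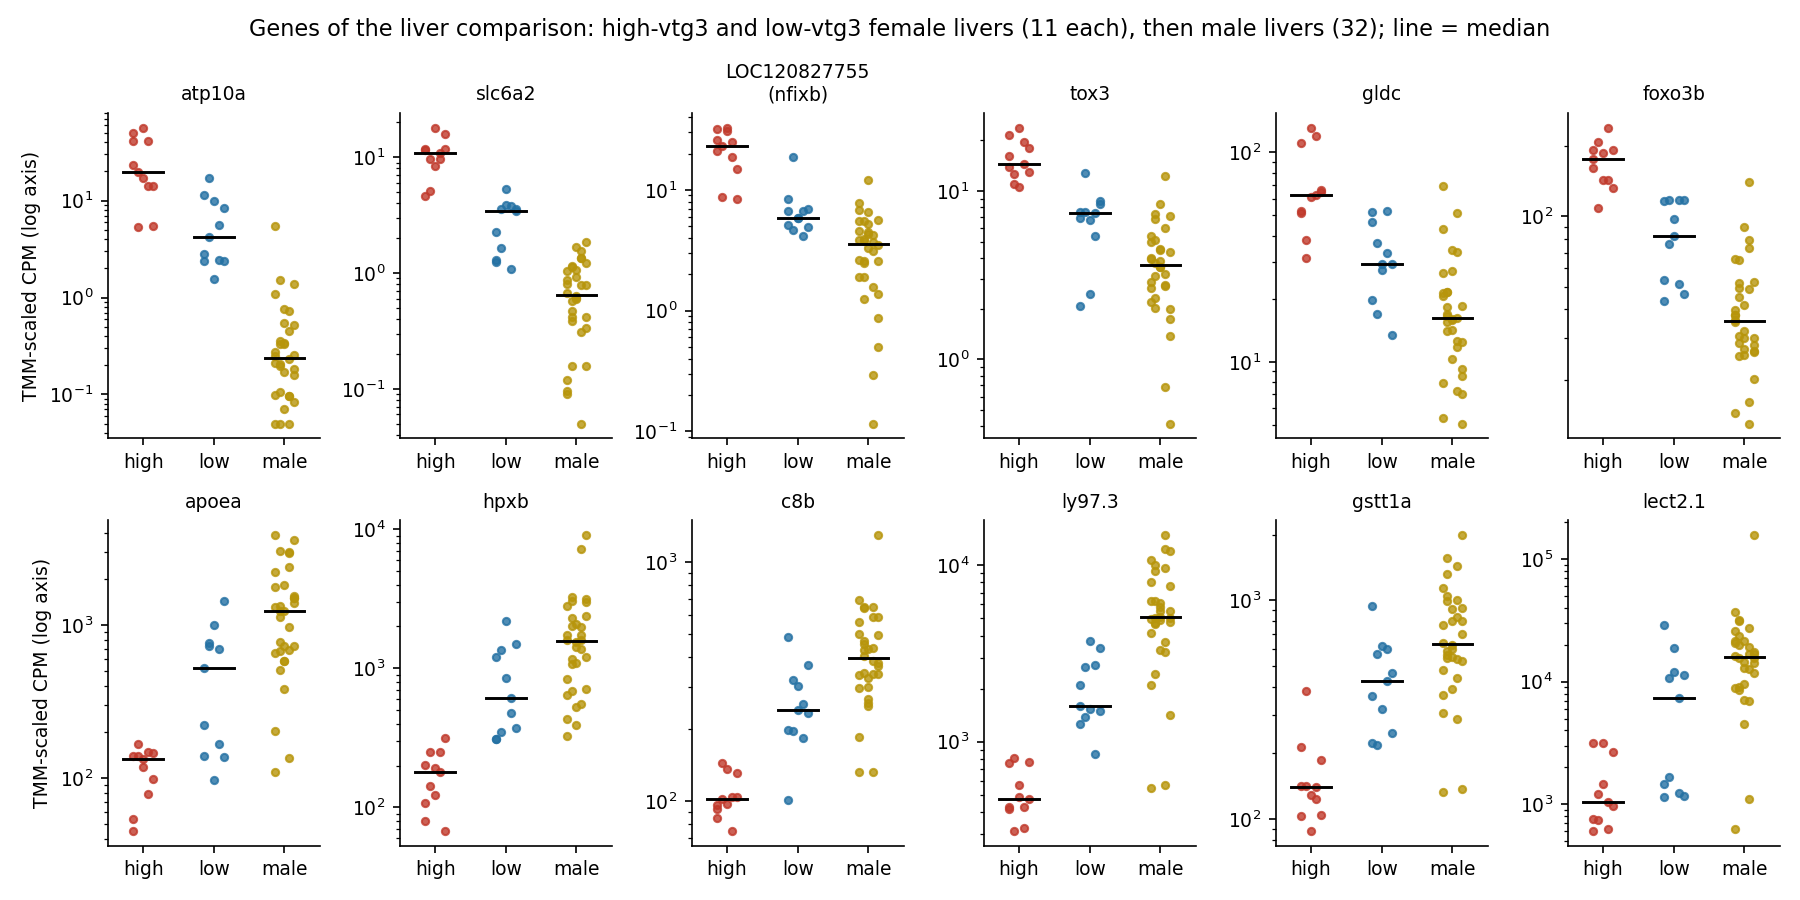
TMM-scaled CPM on log axes of 6 genes higher (top) and 6 lower (bottom) in the high-vtg3 livers; points are libraries, in the order 11 high-vtg3 livers, 11 low-vtg3 livers and 32 male livers, the line is the median, and values under 0.05 are drawn at 0.05. In each panel the male median lies beyond the low-vtg3 median on the side away from the high-vtg3 livers, and in lect2.1 5 low-vtg3 livers lie within the range of the high-vtg3 livers and 6 above it.

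Livers that took no part in the comparison gave levels of the same genes. The male median lay nearer to the low-vtg3 median than to the high-vtg3 median for 35 of the 36 genes that rose and 114 of the 116 that fell, beside 64.3% of all genes tested. In the left-out livers of replicates 17 and 23 the same held for all 36 genes that rose in both, and for 111 and 115 of the 116 that fell, beside 65.7% and 68.1% of all genes. These calls were chosen for a difference between the groups, so the counts are a description. Replicate 21 was in the low-vtg3 group, and its vtg3 came nearest to the male level. It lay nearer to the low-vtg3 median for 34 of the 36 and 99 of the 116, beside 59.2% of all genes. As a member of that group it helped to set the calls and the median, so its counts are a description too.

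The 11 middle livers asked whether the genes also went with vtg3 over its narrow range of 8532 to 10431 CPM. No gene of 12682 (0%) passed for the slope on log2 vtg3 at an adjusted p under 0.05, by edgeR, and 881 (6.95%) had an unadjusted p under 0.05. Of the 36 genes that rose, 31 had a slope above 0, and of the 116 that fell, 28 did, beside 6150 of 11736 genes tested in both fits. The middle median lay between the medians of the other groups for 28 of the 36 and 92 of the 116, beside 34.9% of all genes. The calls were chosen for a difference between those groups, which leaves more room between their medians. The share of all genes is therefore not a like background, and these counts are a description.

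**Figure D5:**
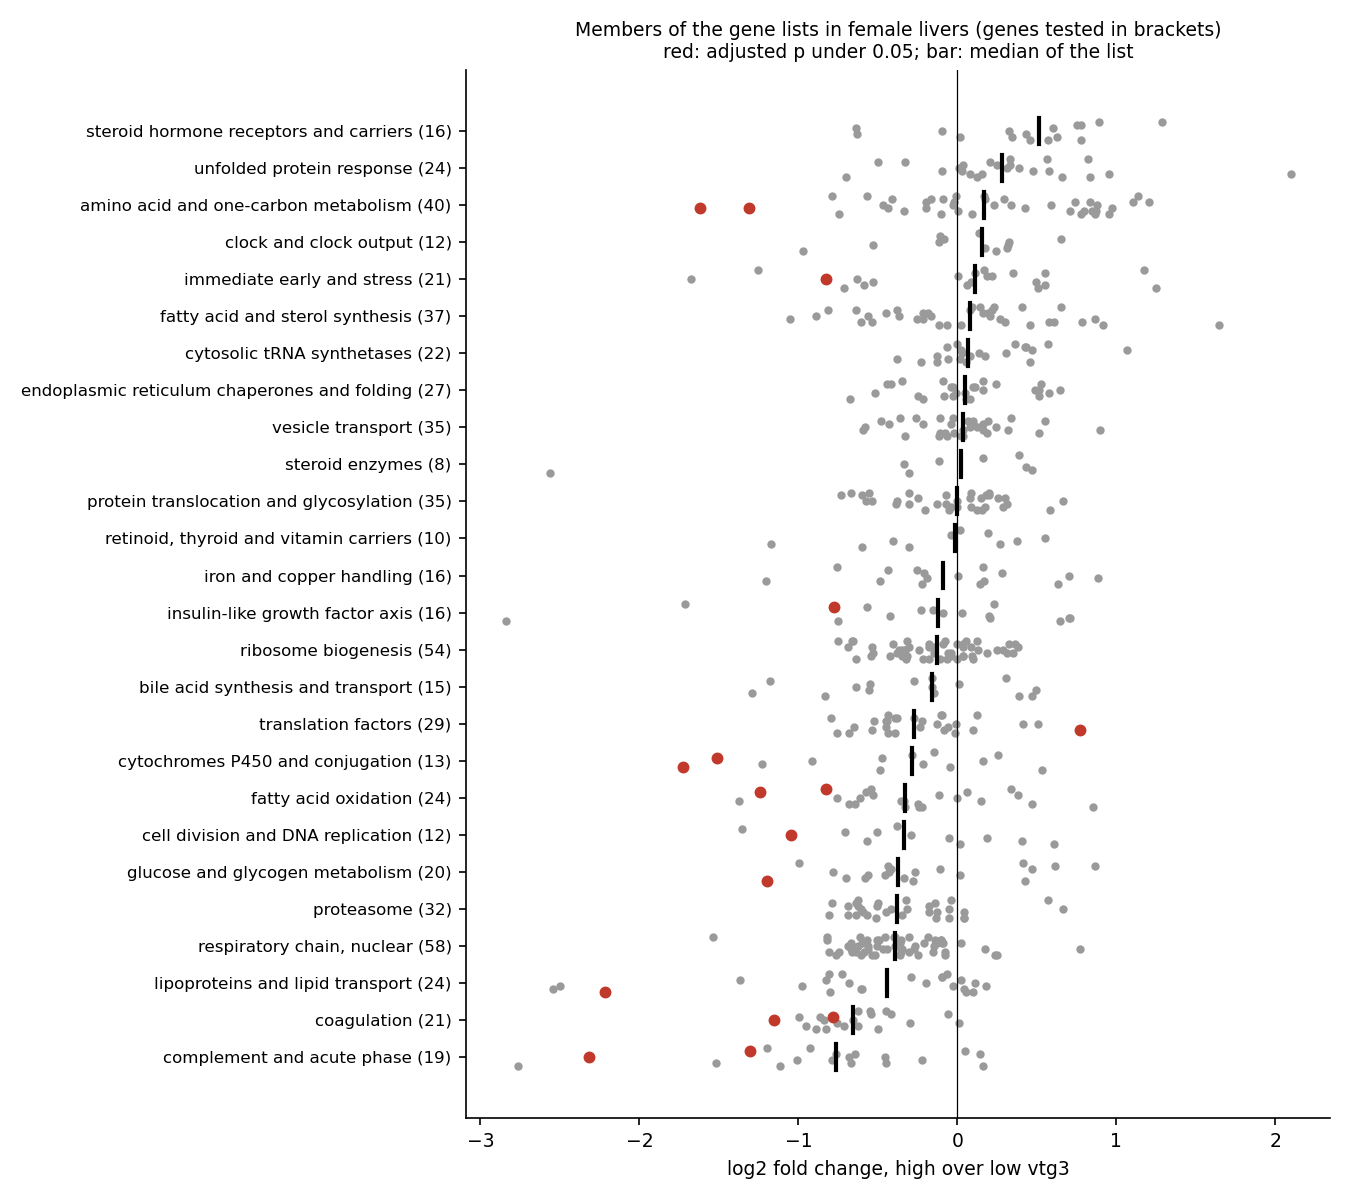
log2 fold change (high over low vtg3) of each tested member of 26 gene lists, grouped by list and ordered by the list's median (black bar); red points passed at an adjusted p under 0.05. Complement, coagulation and lipid transport have the lowest medians, and in no list did more than 2 members pass.

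The production line for yolk protein was examined through lists of its steps. The egg yolk list matched vtg3 alone, and the 4 matched egg coat genes all lay under the filter on low counts. Matching was by gene name, so any yolk or egg coat gene without a name in the gene table could not be found. The 4 most abundant genes besides vtg3 have no such name. Of 16 genes tested for steroid hormone receptors and carriers, 0 passed and 13 were above 0, beside 5862 of all 11953 genes. Their median log2 fold change was 0.51, beside -0.01 over all genes. With the depth covariate 3 were called higher (median 0.60), beside 4.79% of all genes. With livers ranked by scaled vtg3, 4 were called higher and 2 lower, with a median of -0.06. Of all genes 17.7% were called higher and 18.1% lower in that ranking. esr1, the oestrogen receptor through which vitellogenin is induced, had 107, 281 and 404 scaled CPM in the high-vtg3 livers, against 37.0, 134 and 393 in the low-vtg3 livers (log2 fold change 0.78 ± 0.32, unadjusted p = 0.0211, adjusted p = 0.234). Replicate 21 was the lowest of the 22 and replicate 1, also low in vtg3 CPM, nearly as high as the highest high-vtg3 liver; esr1 was singled out after its values were seen. It was at 1.16 (adjusted p = 0.00129, by edgeR) with livers ranked by scaled vtg3, 0.42 (adjusted p = 0.365) with the depth covariate and 0.40 (adjusted p = 0.456) without the 4 low-vtg3 livers above 20000000 counts. shbg, the most abundant of the list and the carrier of sex steroids in blood, had medians of 595 in the high-vtg3 livers and 538 in the low-vtg3 livers (log2 fold change 0.02 ± 0.23), and was at 0.61 (adjusted p = 0.0151, by edgeR) in the scaled ranking.

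No gene of the secretory steps passed, and the medians changed with the scaling and with the depth covariate. None of 27 genes for chaperones and folding in the endoplasmic reticulum passed (median 0.05), none of 35 for translocation and glycosylation (median -0.00), none of 35 for vesicle transport (0.03) and none of 24 for the unfolded protein response (0.28, with 20 above 0). Over all 11953 genes 5862 were above 0. In the same order of lists the medians were 0.36, 0.35, 0.30 and 0.52 with library totals. With the depth covariate they were -0.35, -0.53, -0.27 and -0.13. By that fit 1, 4, 1 and 0 genes were called lower, beside 6.52% of all genes. p4hb, the protein disulphide isomerase, had medians of 2355 in the high-vtg3 livers and 1936 in the low-vtg3 livers (log2 fold change -0.01 ± 0.26). ssr2, of the translocon-associated complex, had medians of 554 and 395 in the same groups (0.09 ± 0.35), mcfd2, of the receptor that carries cargo out of the reticulum, 1018 and 631 (-0.02 ± 0.36), and xbp1, the transcription factor of the unfolded protein response, 936 and 523 (0.03 ± 0.38). Each of these had its lowest and its highest liver in the low-vtg3 group.

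These lists were sensitive to the scale of the ranking. The livers of high and of low scaled vtg3 also differed in TMM factor, as given above, so these values cannot be tied to vtg3 alone. With livers ranked by scaled vtg3, 13 of the reticulum chaperones, 28 of the translocation genes, 16 of the vesicle genes and 11 of the unfolded protein response genes were higher in the livers of high scaled vtg3, with medians of 0.57, 0.99, 0.52 and 0.60. Of all genes 17.7% were called higher in that ranking. ssr2 (1.39), mcfd2 (1.19) and xbp1 (1.38) were among them and p4hb (0.49) was not. Of the 58 respiratory chain genes, 47 were higher with a median of 0.92, and of the 32 proteasome genes, 9 were higher with a median of 0.44, again beside 17.7% of all genes. In the comparison by CPM none of either list passed, with medians of -0.39 and -0.38, and with the depth covariate 20 and 12 of them were called lower, beside 6.52% of all genes. In the comparison by CPM LOC120810289 (cox4i1), a cytochrome c oxidase subunit gene, had medians of 367 in the high-vtg3 livers and 346 in the low-vtg3 livers (-0.50 ± 0.30), and psmb6, a catalytic subunit of the proteasome, had medians of 85.5 and 91.7 in the same groups (-0.81 ± 0.31).

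Lists of secreted plasma proteins had the lowest medians in the comparison by CPM. Of 21 coagulation genes, 0 rose, 2 fell and 20 were below 0, with a median of -0.66. serpinf2b, the plasmin inhibitor, had 79.9, 124 and 182 in the high-vtg3 livers, against 72.1, 281 and 525 in the low-vtg3 livers (log2 fold change -1.16 ± 0.25, adjusted p = 0.0181), and serping1, the inhibitor of the first complement component, had a log2 fold change of -0.78 ± 0.20. Of 19 complement and acute phase genes, 0 rose, 2 fell and 16 were below 0 (median -0.76). Beside hpxb, this was c8b, of the membrane attack complex, with 75.2, 102 and 144 in the high-vtg3 livers, against 101, 239 and 487 in the low-vtg3 livers (log2 fold change -1.30 ± 0.23, adjusted p = 0.0041). Of 24 lipoprotein genes apoea alone fell and 18 were below 0 (median -0.44). With livers ranked by scaled vtg3 the medians of the 3 lists were 0.05, 0.07 and -0.01, and serpinf2b and serping1 were at 0.04 and 0.03. In the fit with the depth covariate the medians were -0.75, -0.88 and -0.36 in the same order. By that fit 9, 5 and 5 genes were called lower, beside 6.52% of all genes. The respiratory chain list had a median of -0.83 in it, below that of the lipoprotein genes. Of 16 iron and copper genes none passed (median -0.09, and 0.07 with library totals); tfa, the transferrin gene, had medians of 3710 in the high-vtg3 livers and 5180 in the low-vtg3 livers (-0.44 ± 0.47).

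In metabolism the calls were few and downward, beside 0.97% of all genes called lower and 0.301% called higher. Of 24 fatty acid oxidation genes 2 fell (median -0.33), eci1, an enoyl-CoA isomerase gene (log2 fold change -1.24 ± 0.31), and pdk4, for the kinase that shuts pyruvate dehydrogenase (-0.83 ± 0.20); pdk4 was also the single call among 21 immediate early and stress genes (median 0.11). Of 13 genes for cytochromes P450 and conjugation LOC120826987 (cyp2y3; -1.73 ± 0.33) and the glutathione transferase gene gstt1a (-1.51 ± 0.29) fell (median -0.28). Of 40 amino acid genes ido1 (-1.62 ± 0.30) and the arginase gene arg1 (-1.31 ± 0.34) fell, while the median was 0.17. igfbp2a, which binds insulin-like growth factors, fell alone among 16 genes of that axis (-0.77 ± 0.19; median -0.12), and dut, for the enzyme that clears dUTP, alone among 12 of cell division (-1.05 ± 0.26; median -0.34). eif4g1a was the one call among 29 translation factors, which had a median of -0.27. With livers ranked by scaled vtg3, 15 of the 24 fatty acid oxidation genes were called higher and 2 lower (median 0.85). Over all genes 17.7% were called higher and 18.1% lower in that ranking.

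No gene passed in the remaining lists, with medians of 0.02 for 8 steroid enzymes, 0.08 for 37 fatty acid and sterol synthesis genes, -0.16 for 15 bile acid genes, 0.07 for 22 tRNA synthetases, -0.13 for 54 ribosome biogenesis genes, 0.16 for 12 clock genes and -0.01 for 10 carriers of retinoids, thyroid hormone and vitamins. With library totals the medians for bile acids, ribosome biogenesis and these carriers were 0.02, 0.10 and 0.04. Of the list members that passed, serpinf2b, c8b, cyp2y3, gstt1a, ido1, hpxb and apoea kept their call in all 22 fits without 1 liver. The others did so in 3 (eif4g1a and serping1) to 10 (igfbp2a and dut) of the 22. Without the 4 low-vtg3 livers above 20000000 counts arg1 (-0.76), eif4g1a, pdk4, igfbp2a and serping1 lost the call, and with the depth covariate arg1 (-0.64) and eif4g1a did.

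Brain and gills of the same fish had no part in the ranking. In the brain, 9 fish of the high-vtg3 group and 11 of the low-vtg3 group were measured, and 0 of 17928 genes (0%) passed by edgeR at an adjusted p under 0.05; 1103 genes (6.15%) had an unadjusted p under 0.05, and DESeq2 called 0. The smallest unadjusted p-values were of LOC120819450 (cox6b1), a cytochrome c oxidase subunit gene, with 51.4, 115 and 338 scaled CPM in fish of high liver vtg3, against 34.3, 65.5 and 159 in fish of low liver vtg3 (log2 fold change 1.31 ± 0.30, adjusted p = 0.783), of cabcoco1 (0.87 ± 0.21, adjusted p = 0.783) and of desma, a desmin gene of muscle (1.93 ± 0.48, adjusted p = 0.783). In the gills, 10 fish of the high-vtg3 group and 11 of the low-vtg3 group gave 0 of 17199 genes (0%) by edgeR, with 314 (1.83%) at an unadjusted p under 0.05, and 0 by DESeq2. plin2, of the lipid droplet coat, had 8.63, 14.9 and 21.9 scaled CPM in fish of high liver vtg3, against 14.1, 22.0 and 37.8 in fish of low liver vtg3 (log2 fold change -0.68 ± 0.18, adjusted p = 1.00), and the unnamed LOC120811964 (9.00 ± 1.98) and LOC120827665 (1.38 ± 0.37) had the other smallest p-values, also with an adjusted p = 1.00.

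The liver calls were also read in the other tissues. Of 143 liver calls tested in the brain, 58 had the same sign there and 13 an unadjusted p under 0.05 by edgeR. Of 127 tested in the gills, 54 and 10 did. In the brain 15 of the 35 that rose in the liver were above 0 and 43 of the 108 that fell were below 0. In the gills these were 19 of 36 and 35 of 91. Over all genes 6.15% in the brain and 1.83% in the gills had an unadjusted p under 0.05, and 50.3% and 52.7% were above 0. Whether liver differs from brain or gills in its number of calls was not tested.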

How the data were processed

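Libraries were made with a 3' end kit (QuantSeq FWD) from total RNA, per the labels. The authors deposited raw read counts for each gene and library in a table per tissue, made with fastp, STAR and HTSeq, per the submitters' processing notes. Genome build, annotation and strandedness are not given in the sources used here, so overlapping genes and near-identical copies are uncertain. Each table lists 25994 genes and 5 summary lines, and these lines count neither as genes nor toward library sizes. Unassigned reads, in no gene, made up 5.22% to 8.82% of the reads of the ranked livers. Gene names come from the RefSeq gene table of fGasAcu3.hap1.1, which matched 21059 genes (81%), and genes without a match keep their identifiers. No columns were left unused.

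Totals were 4351992 to 24264210 counts in the 33 ranked livers, 9184564 to 15254442 in the brain and 8230849 to 28095335 in the gills. Intervals are not given for single counts, since the reads carry no molecular identifiers.

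Groups were tested with edgeR 4.0.16 (quasi-likelihood, TMM, filterByExpr, Benjamini-Hochberg over all genes, called at an adjusted p under 0.05) in R 4.3.3, tested on simulated data first. DESeq2 1.42.0 and limma 3.58.1 were alternatives. Each liver is 1 fish, and p-values measure the spread between fish. Depth and makeup were compared by two-sided permutation tests with 100000 resamples (SciPy 1.17.1). The liver genes named are the 12 largest and 12 smallest log2 fold changes among called genes with a name and a mean of at least 5 CPM, the 5 most abundant called in each direction and up to 5 members per gene list (called, or else the most abundant), and in brain and gills the 3 genes of smallest p. The members and lists were chosen with earlier results of these data known. Results of some genes are not reported here.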

Additional observations from a re-analysis of the deposited data

Results flagged for a closer look

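In gills and brain, single libraries stood apart from the other fish of high liver vtg3 in 3 genes, by Dixon's gap test, which chance passes in about 1 of 20 groups. Replicate numbers run within each tissue. LOC120811964 had 7753 CPM in the gills of female replicate 19, while the next highest of the 10 fish had 230 CPM and their median was 2.13 CPM. Without that library its log2 fold change was 4.01 in place of 9.00. LOC120827665 had 82.8 CPM in the gills of replicate 35, with the next at 41.3 CPM and a median of 16.6 CPM. In the brain desma had 14.2 CPM in replicate 7, with the next of 9 fish at 3.76 CPM and a median of 1.38 CPM, and its log2 fold change without that library was 0.98 in place of 1.93. The cause was not tested.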

How the results depend on the processing

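The number of liver calls, 152 by edgeR, moved by more than 1.5 times under several alternatives. It was 13 with library totals without TMM, 471 with DESeq2's Wald test, 511 with limma-voom and quality weights, 100 with no filter on low counts, 66 for narrower groups (the 8 highest against the 8 lowest livers), 422 with both left-out livers ranked with the rest and 1351 with the log2 total count as a covariate. Among alternatives chosen after seeing the data it was 485 without the 4 low-vtg3 livers above 20000000 counts, 1845 without these and replicate 21, and 4230 with livers ranked by TMM-scaled vtg3. Leaving out 1 liver at a time gave 89 to 248. The 152 genes kept their direction wherever they had a value, except in the ranking by scaled vtg3, where 95 did. The slope in the middle livers gave 31 calls with no filter, and brain and gills gave 0 under every alternative run. Depth and makeup kept their direction and side of the threshold with both left-out livers ranked.

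Some named genes turned in sign. In the ranking by scaled vtg3 the log2 fold change was -0.16 for slc12a4, -0.14 for pus10, -0.64 for hrh2a, -0.33 for arid3c, -0.021 for dpf3, -0.39 for gldc, 0.027 for soul5, 0.54 for eci1, 0.040 for serpinf2b, 0.035 for serping1, 0.27 for dut, 0.49 for p4hb, 1.19 for mcfd2, 0.98 for cox4i1 and 0.54 for psmb6. The other turns were of genes that did not pass. p4hb was at 0.0068 with DESeq2's Wald test, 0.0063 with its size factors, 0.33 with library totals, 0.26 for the slope and 0.15 with the narrower groups. mcfd2 was at 0.49 with library totals, 0.41 for the slope and 0.55 with the narrower groups. For the slope shbg was at -0.024, cox4i1 at 0.14 and psmb6 at 0.15. With the depth covariate shbg was at -0.25, ssr2 at -0.40, xbp1 at -0.43 and tfa at 0.056, and without the 4 deep livers shbg was at -0.22, ssr2 at -0.29 and xbp1 at -0.41. Leaving out 1 liver gave -0.13 to 0.29 for mcfd2, -0.088 to 0.18 for p4hb, -0.055 to 0.15 for shbg, -0.012 to 0.27 for ssr2 and -0.072 to 0.30 for xbp1. The cause was not tested. No paired analysis was possible because all ranked livers are of 1 labelled group and share no replicate number.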
